A study of Mus musculus with 6 samples.

Results

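The Spink genes encode secreted serine protease inhibitors of the Kazal type, and 8 of them (Spink1, Spink2, Spink5, Spink8, Spink10, Spink11, Spink12 and Spinkl) were followed here in the anterior prostate (AP) of mice with over-activated Notch1 signaling. They were taken by symbol from 55076 rows per mouse, in which 13 symbols begin with Spink. RNA-seq was done on total RNA of the whole AP of 3 OEx and 3 Ctrl males aged 20 weeks, with 1 library for each. OEx mice had the genotype Pbsn-Cre Rosa26 N1ICD/+, so that Cre driven by the Pbsn promoter switched on the Notch1 intracellular domain (N1ICD) in prostatic epithelium. Ctrl mice carried the Rosa26 N1ICD/+ allele without Cre according to the paper, and are called wild type in the sample labels, so both groups would hold the allele and differ in Cre. The members were chosen with their values in OEx and Ctrl mice in view. Their differences between the groups are therefore given as a description, with no test.

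A Kazal domain is a small fold held together by disulfide bonds, which offers a protease a loop that fits its active site and blocks it. Spink1, the pancreatic secretory trypsin inhibitor, guards the pancreas against early trypsin activity and is also an androgen-responsive product of male accessory glands. Spink5 encodes LEKTI, a long precursor with many Kazal-type domains that restrains kallikreins in skin and mucosal epithelia. Spink2 inhibits acrosin in the male germ line, Spink8, Spink10, Spink11 and Spink12 are known mainly from the male reproductive tract, and Spinkl was described in seminal vesicle fluid as an inhibitor-like protein that binds sperm.

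The Kazal-domain parts of the Spink8 and Spink2 coding sequences are shown because they let the shared cysteine frame be seen in a gene that was abundant in AP and in one that was close to 0. They were read from the GENCODE vM21 transcripts of GRCm38 and run 5′ to 3′ from the first to the last cysteine codon, with the cysteine codons in capitals. The lines hold bases 130 to 288 of the 318 coding bases of Spink8 (plus strand, chr9:109812280-109826633) and bases 112 to 258 of the 261 of Spink2 (minus strand, chr5:77205107-77211471).
Spink8: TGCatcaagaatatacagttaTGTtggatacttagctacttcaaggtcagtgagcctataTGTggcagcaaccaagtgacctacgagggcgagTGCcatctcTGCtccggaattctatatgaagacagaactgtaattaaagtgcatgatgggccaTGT
Spink2: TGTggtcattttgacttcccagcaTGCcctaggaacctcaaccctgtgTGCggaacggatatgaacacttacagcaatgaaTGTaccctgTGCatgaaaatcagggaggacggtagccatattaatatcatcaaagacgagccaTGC
Both hold 6 cysteine codons, as do Spink1 and Spinkl.

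The spacing of these codons was shared more closely than the bases. In each of the 6 members with fewer than 12 cysteine codons, 1 gap of 10 codons was followed by a gap of 2 codons and then by a last gap of 15 to 18 codons. Spink8 and Spink2 show it in the last 4 capital triplets of the lines above. Spink5 differs in size, with a coding length of 3054 bases and 61 cysteine codons, against 243 to 489 bases in the other members. The pair of gaps of 10 and 2 codons occurs in 2 places in Spink5. Exact runs of bases were compared between whole transcripts, 1 per member, with their untranslated parts. These runs were short, at most 15 bases in 27 of the 28 pairs, while Spink11 and Spinkl share a run of 56 bases. Whether that run is coding was not examined. Reads could therefore be split between Spink11 and Spinkl, and their values are less certain than those of the other members.

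In Ctrl AP the family consisted almost wholly of Spink1 and Spink8, and in OEx AP mostly of Spink5 and Spink11. Spink1 and Spink8 were lower in every OEx mouse than in any Ctrl mouse, and Spink5, Spink11 and Spinkl were higher in every OEx mouse than in any Ctrl mouse. Such a lack of overlap was common, at 72.4% of all genes tested, and the members were chosen on it. Spink2, Spink10 and Spink12 stayed below 1 FPKM (fragments per kilobase of exon, relative to the depth of the library) in all 6 mice. These RNA levels come from whole tissue, in which fewer cells of a type and less RNA per cell cannot be told apart.

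**Figure D1:**
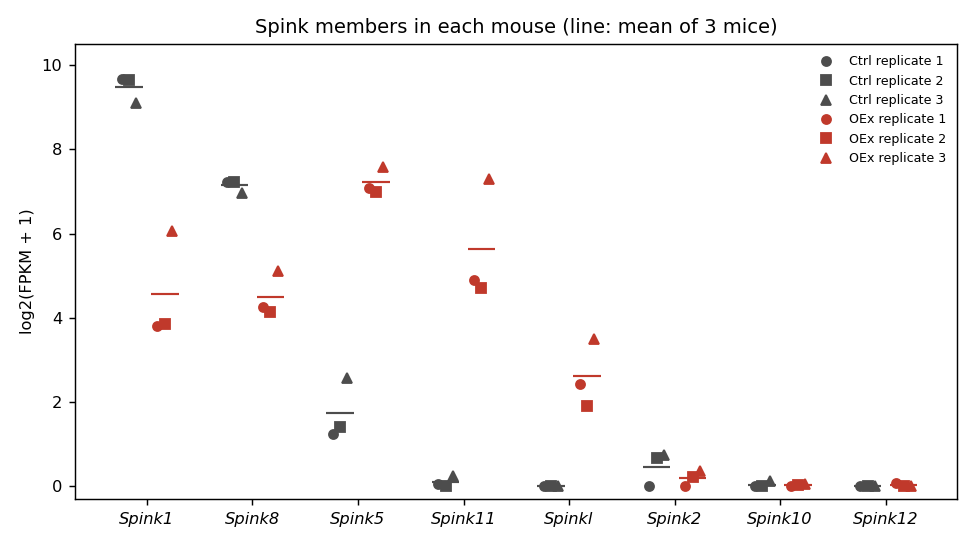
The level of the 8 Spink members in each of the 6 mice, as log2(FPKM + 1) on the vertical axis, with Ctrl mice in grey, OEx mice in red, a symbol shape for each replicate and a line at the mean of 3 mice. Spink1 and Spink8 sit higher in Ctrl mice and Spink5, Spink11 and Spinkl in OEx mice, while the other 3 members lie near 0 in both groups.

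Spink1 was the most abundant member of Ctrl AP. Its level was 809, 802 and 547 FPKM in Ctrl mice 1, 2 and 3, a mean of 719 ± 149 (SD, n = 3). In OEx mice it was 12.9, 13.5 and 66.0 FPKM, a mean of 30.8 ± 30.5 (SD, n = 3). The groups did not overlap, although OEx replicate 3 stood 5.0 times above the mean of the other two OEx mice. The Ctrl mean was 23.3 times the OEx mean, and the log2 fold change of OEx against Ctrl on the log2(FPKM + 1) scale was -4.89, with a standard error of 0.61. Spink1 lies on the minus strand at chr18:43728082-43737557 (GRCm38) and overlaps no other annotated gene.

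Spink8 moved in the same direction as Spink1 by a smaller amount. Ctrl mice had 149, 149 and 125 FPKM, a mean of 141 ± 13.9 (SD, n = 3), and OEx mice had 17.95, 16.5 and 33.7 FPKM, a mean of 22.7 ± 9.56 (SD, n = 3). Every OEx mouse was below every Ctrl mouse, and OEx replicate 3 was again the highest of its group. The Ctrl mean was 6.19 times the OEx mean, with a log2 fold change of -2.64 and a standard error of 0.26. The ratio of the 2 genes differed too. Spink1 exceeded Spink8 by a factor of 5.44, 5.40 and 4.39 in Ctrl mice, and the ratio of Spink1 to Spink8 was 0.721, 0.816 and 1.96 in OEx mice.

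Spink5, the LEKTI gene, was the most abundant member in OEx AP by the deposited values. OEx mice had 135, 125 and 191 FPKM, a mean of 150.4 ± 35.7 (SD, n = 3), and Ctrl mice had 1.35, 1.65 and 4.95 FPKM, a mean of 2.65 ± 2.00 (SD, n = 3). The OEx mean was 56.8 times the Ctrl mean, and the log2 fold change was 5.48 with a standard error of 0.37. The difference rests on many reads, with 12876, 13688 and 16524 reads recovered in OEx mice and 81, 102 and 360 in Ctrl mice. Ctrl replicate 3 was 3.30 times the mean of the other two Ctrl mice and still far below every OEx mouse. Spink5 lies on the plus strand at chr18:43963235-44022501.

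Spink11 was close to the detection limit in Ctrl AP and well expressed in OEx AP. Ctrl mice had 0.0322, 0 and 0.185 FPKM, which correspond to 1, 0 and 7 reads. OEx mice had 29.0, 24.9 and 156 FPKM from 1436, 1417 and 6990 reads, a mean of 69.9 ± 74.5 (SD, n = 3). The spread among OEx mice was as large as their mean, because OEx replicate 3 was 5.78 times the mean of the other two. The groups did not overlap, and the log2 fold change was 5.54 with a standard error of 0.66. This value is set by the 1 FPKM added before the logarithm, and was 8.28 with 0.1 FPKM added and 9.92 by limma-voom on recovered reads. No ratio of means is given, as the Ctrl level rests on so few reads. Spink11 lies on the minus strand at chr18:44190045-44196177.

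Spinkl was listed at 0 in all 3 Ctrl mice. OEx mice had 4.4, 2.73 and 10.4 FPKM, a mean of 5.83 ± 4.02 (SD, n = 3). The mean in OEx mice was at least 15.5-fold higher than the level that 3 reads per Ctrl library would give. The fitted log2 fold change was 2.61 with a standard error of 0.38, a value that depends on the 1 FPKM added before the logarithm and is no bound. Spinkl lies on the minus strand at chr18:44166356-44175074, next to Spink11.

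The remaining members were nearly silent. Spink2 had 0, 0.166 and 0.281 FPKM in OEx mice and 0, 0.588 and 0.668 FPKM in Ctrl mice, from at most 8 reads per library, and the groups overlapped. Spink10 reached at most 0.0353 FPKM in OEx mice and 0.0839 FPKM in Ctrl mice, and its locus at chr18:62548911-62668070 overlaps Gm36368, Spink13 and Spink7. Spink12 (chr18:44104407-44108543) was seen as 1 read in OEx replicate 1 and in no other mouse. A difference in these 3 members was not detectable at this depth.

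Of the 8 members, 5 passed the filter of a mean of at least 1 FPKM over the 6 mice. Spink11 and Spinkl passed it only through the OEx mice, so they had to differ. Among all 12833 genes that passed, a gene was called where its Benjamini-Hochberg FDR in limma was under 0.05 and its fold change over 2. By this rule 12.9% of genes were called higher and 15.7% lower in OEx mice, 28.6% in all. The 5 members in the filter comprised 3 called higher and 2 called lower. As the members were chosen on this contrast, nothing is read from that count.

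The summed level of the 8 members was lower in OEx mice, at 199, 183 and 458 FPKM against 959, 953 and 677 FPKM in Ctrl mice. The means were 280 ± 154 and 863 ± 161 FPKM (SD, n = 3 each). This order rests on the scaling between mice and on the gene lengths behind the deposited FPKM. All rows together summed to 253965 to 272224 FPKM in OEx mice and 467138 to 529972 FPKM in Ctrl mice. The family sum was not recomputed at another scaling. With Spink11 taken per kilobase of its coding transcript of 746 bases, the OEx sums would be 267, 241 and 821 FPKM, a mean of 443 ± 328 (SD, n = 3), and OEx replicate 3 would lie above Ctrl replicate 3 at 678 FPKM. The shares below use the deposited values. The make-up of this sum differed as well. Spink1 gave 80.7% to 84.3% of the sum in Ctrl mice, against 6.50% to 14.4% in OEx mice. Spink8 gave 15.5% to 18.4% in Ctrl and 7.37% to 9.03% in OEx mice. Spink5 made up 0.141% to 0.731% of the sum in Ctrl mice, against 41.8% to 68.4% in OEx mice. Spink11 made up 13.6% to 34.1% and Spinkl 1.49% to 2.27% of the OEx sum, against at most 0.0274% for Spink11 in Ctrl mice.

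**Figure D2:**
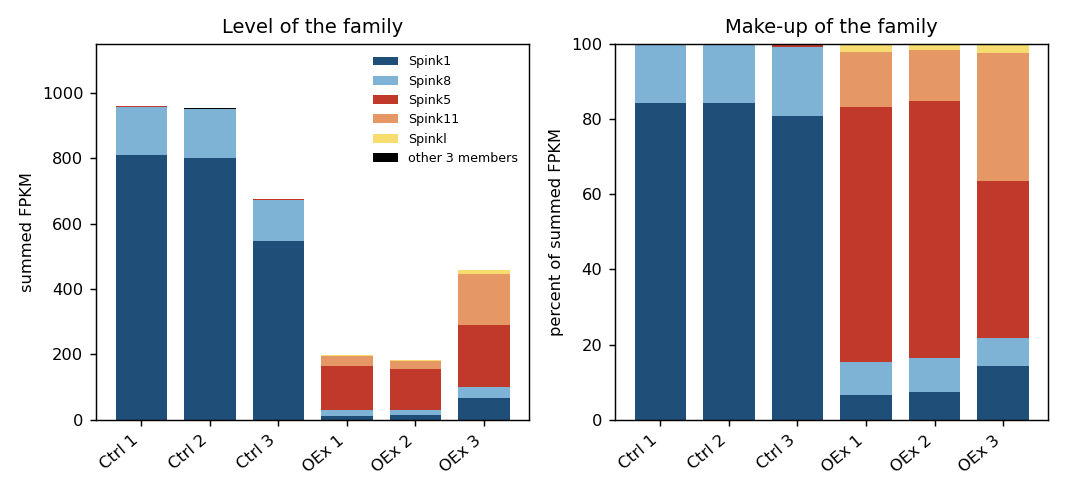
The summed FPKM of the 8 Spink members in each mouse on the left, and the percent of that sum given by each member on the right, with 1 bar per mouse and a colour per member. Spink1 (dark blue) and Spink8 (light blue) fill the Ctrl bars, and Spink5 (red) and Spink11 (orange) take 75.9% to 82.3% of each OEx bar.

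The order of the levels within OEx AP was less settled than the order within Ctrl AP. In Ctrl mice the ranges of Spink1, Spink8, Spink5 and Spink2 did not overlap in that order, from 547 to 809 FPKM down to at most 0.668 FPKM. In OEx mice Spink5 had the highest mean, but its range of 125 to 191 FPKM overlapped the 24.9 to 156 FPKM of Spink11. Spink1 and Spink8 also overlapped in OEx mice, and Spink1 was the lower of them in replicates 1 and 2 and the higher in replicate 3. Spinkl was the lowest of the 5 in every OEx mouse, below the range of Spink8.

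The rank of Spink11 depends on the gene length behind its FPKM. Its values match whole reads at an exon length of 2484 bases, which includes a non-coding transcript of 1891 bases, while its coding transcript is 746 bases long. Rescaled to the coding transcript, Spink11 would stand at 96.5, 83.1 and 519 FPKM in OEx mice. It would then be above Spink5 in OEx replicate 3 and below it in the other two. Spink1 has an annotated exon length of 729 bases in GENCODE vM21, but its values match whole reads at 422 bases, so its level relative to other members rests on a gene model that the sources used here do not give. Ratios of the FPKM of 1 gene between mice are not touched by these lengths. The log2 fold changes on the log2(FPKM + 1) scale and the filter of 1 FPKM do depend on them.

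Replicate 3 of each group stood apart from replicates 1 and 2, for the Spink genes as for the transcriptome. Replicates 1 and 2 of a group had a Pearson r of 0.991 over genes in OEx and in Ctrl mice, against 0.950 to 0.965 for each of them with replicate 3. The reads of replicates 1 and 2 differed by more than counting noise, with a chi-square per degree of freedom of 3.67 in OEx and 2.93 in Ctrl mice. Against replicate 3 it was 50.4 and 52.5 in OEx and 84.8 and 86.7 in Ctrl mice. Such an excess cannot tell 2 mice from 2 libraries of 1 RNA sample. Each replicate was counted as a mouse because the labels number it so, and the SD, standard errors and FDR values rest on that. In OEx replicate 3 all 5 members in the filter were above both other OEx mice, at 1.47 times their mean for Spink5, 1.96 times for Spink8 and 2.91 times for Spinkl. In Ctrl replicate 3 Spink1 and Spink8 were lower than in the other Ctrl mice, at 0.679 and 0.838 times their mean, and Spink5 was higher. Without replicate 3 of both groups the log2 fold changes were -5.83 for Spink1, -3.04 for Spink8, 5.71 for Spink5, 4.78 for Spink11 and 2.17 for Spinkl. The labels do not say whether same-numbered mice were littermates, and the spread between mice may in part be technical.

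Other features of the libraries moved with these values, and their part in the Spink differences was not tested. Notch1 itself checked the labels, at 41.9, 47.6 and 78.9 FPKM in OEx mice and 5.18, 5.55 and 3.34 FPKM in Ctrl mice. The 8 prostate luminal markers were all above 1 FPKM in every mouse, with sums of 24785 to 25032 FPKM in Ctrl mice and 3285 to 6641 FPKM in OEx mice, highest in OEx replicate 3. The 4 basal markers summed to 212 to 249 FPKM in Ctrl and 6.79 to 15.9 FPKM in OEx mice. The 6 Club and proximal markers summed to 108 to 115 FPKM in Ctrl and 404 to 636 FPKM in OEx mice, with Scgb3a1 at or near 0 in all mice and Psca and Krt7 lower in OEx mice. The 6 smooth muscle and fibroblast markers summed to 814 to 1684 FPKM in Ctrl and 303 to 471 FPKM in OEx mice. Acta2, Des and Myh11 carried that difference, while the fibroblast marker Col1a1 was higher in OEx mice 1 and 2, at 75.4 and 83.7 FPKM against 11.4, 11.5 and 18.9 FPKM in Ctrl mice, and 6.04 FPKM in OEx replicate 3. Dcn overlapped between the groups, at 37.2, 34.0 and 10.05 FPKM in OEx mice and 24.6, 22.6 and 42.8 FPKM in Ctrl mice. The 5 immune markers summed to 4.50 to 8.57 FPKM in Ctrl and 5.66 to 22.8 FPKM in OEx mice.

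Other organs of the male tract are a known source of several of these inhibitors, so their markers were also read. The 8 seminal vesicle markers summed to 16128 FPKM in Ctrl replicate 3, with 4.36 and 2.74 FPKM in the other Ctrl mice and between 0.578 and 1.18 FPKM in OEx mice. Spinkl was at 0 in Ctrl replicate 3, and Spink1 was lower there than in the other Ctrl mice. The 8 epididymis markers summed to at most 0.962 FPKM in any mouse, and Lcn5, Lcn8, Cst8, Defb41 and Rnase9 were at 0 in all 6. The part of such tissue in the Spink levels was not tested.

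Of the 13 Spink genes, 10 lie on chromosome 18, among them 6 of the 8 members. Spink1, Spink5, Spink12, Spinkl and Spink11 lie within a stretch of 468.1 kb that holds 16 annotated genes, 11 of them protein coding and 7 of them Spink genes. Genes that were lower and higher in OEx mice thus share this stretch. The stretch was drawn from Spink1, lower in OEx mice, to Spink11, higher in OEx mice, so these genes are its ends by choice. The Spink genes between the members were close to silent. Spink14 had 0.264, 0.692 and 0 FPKM in OEx mice and 0.271 FPKM in Ctrl replicate 2 alone, and Spink6 at most 0.0944 FPKM in OEx mice and 0 in Ctrl mice. Of the 9 other genes of the stretch, 5 were matched by symbol and none of these passed the filter, and the other 4 were not analysed here. Gm10267, 1 of these 9 and chosen after its values were seen, lies beside Spinkl and had 1.14, 1.86 and 1.41 FPKM in OEx mice and 0 in all Ctrl mice.

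**Figure D3:**
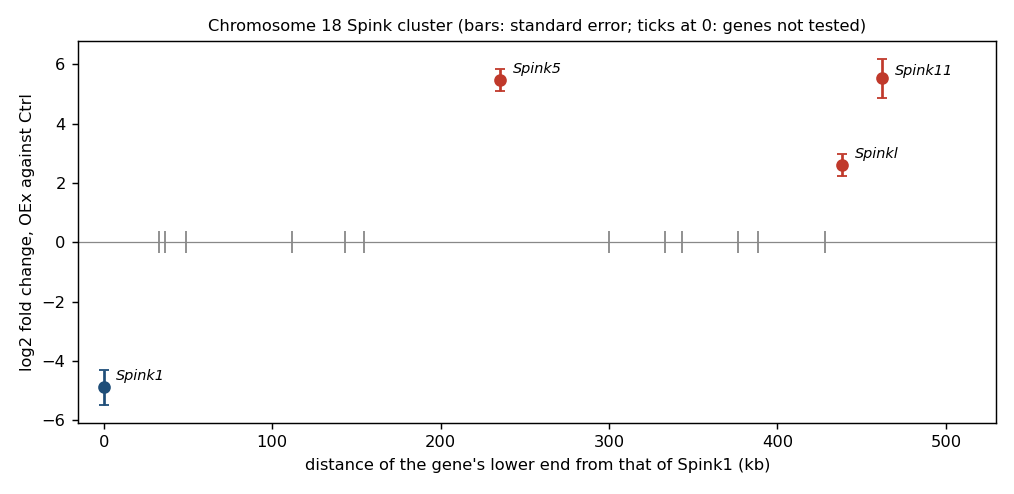
The log2 fold change of OEx against Ctrl (vertical axis, with standard error bars) for genes of the chromosome 18 Spink stretch, against the distance of each gene from Spink1 in kb (horizontal axis). Spink1 at 0 kb is lower, Spink5 at 235.2 kb, Spinkl at 438.3 kb and Spink11 at 462.0 kb are higher, and ticks mark the genes that were not tested.

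The rest of the named Spink genes gave little signal. Spink4 had 0.335 and 0.324 FPKM in Ctrl replicates 1 and 2, from 2 reads each, and was at 0 in the other mice. Spink13 was seen in Ctrl replicate 1 alone, at 0.301 FPKM, and Spink7 was at 0 in all 6 mice. None of the 5 Spink genes outside the members passed the filter.

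Inhibitors of other folds also held genes called in both directions. Of 32 genes with Kunitz or whey acidic protein (WAP) domains, which also block serine proteases, 16 passed the filter, 7 were called higher and 2 lower, and 7 were not called. That is 43.75% higher and 12.5% lower, beside 12.9% and 15.7% of all genes. Of the 7, Wfdc8, Wfdc10 and Wfdc18 averaged under 1 FPKM in Ctrl mice and passed the filter only through the OEx mice, as did 671 of the 1653 genes called higher in all, so the share is no support for a difference of the list. The median log2 fold change was 0.95, against -0.08 over all genes. With libraries scaled to equal FPKM sums the count became 12 higher and 1 lower, and the directions of Aplp2, App and Tfpi, none of them called, turned.

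Wfdc3, a WAP gene, had 120, 123 and 197 FPKM in OEx mice and 2.15, 1.98 and 3.10 FPKM in Ctrl mice. Its log2 fold change was 5.41 (SE 0.22, limma FDR 2.04e-05). Wfdc6b and Wfdc8, which overlap each other and may share reads, had 47.8, 39.95 and 87.5 FPKM and 21.7, 23.2 and 60.1 FPKM in OEx mice. Wfdc6b rose by 4.78 (SE 0.32, limma FDR 5.31e-05), and Wfdc8 was at most 0.386 FPKM in Ctrl mice. Wfdc15b rose by 3.67 (SE 1.03, limma FDR 0.0179), but was 17.4 FPKM in Ctrl replicate 3, the library with seminal vesicle genes, against 0.140 and 0.270 FPKM in the other Ctrl mice. Its call was lost without Ctrl replicate 1 or Ctrl replicate 2.

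Wfdc2 and Wfdc1 were the inhibitors that fell. Wfdc2 had 14.6, 15.2 and 9.81 FPKM in Ctrl mice and 3.61, 3.18 and 2.53 FPKM in OEx mice, a log2 fold change of -1.78 (SE 0.18, limma FDR 2.46e-04). Wfdc1 fell by 1.10 (SE 0.36, limma FDR 0.0327), and this call was lost under several alternatives, with FDR values from 0.00608 to 0.394. Several of the WAP genes named here lie on chromosome 2, while Wfdc1 lies on chromosome 8. Wfdc2 (chr2:164562413-164568510), lower in OEx mice, lies between Wfdc15b (chr2:164214454-164221660) and Wfdc8 (chr2:164596458-164613626), both higher.

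Kazal domains outside the Spink family are found in matrix and signaling proteins. Of 20 such genes, 15 passed the filter, 3 were called lower and 0 higher by limma, with a median log2 fold change of -0.72 against -0.08 over all genes. The 20.0% called lower was close to the 15.7% of all genes, and little is read from it. At an unadjusted p under 0.05, 6 were lower and 0 higher, and limma-voom on recovered reads called 4 lower and 0 higher. The share of all genes at that p is not given here, but by FDR alone 4680 of 12833 genes were lower and 3941 higher. Limma-voom called 2017 of 12467 genes lower and 2526 higher, so little is read from these counts either. With equal FPKM sums the median was 0.16, with 1 gene called in each direction. Spock2, a testican of the extracellular matrix, fell by 1.90 (SE 0.29, limma FDR 0.00125), from 5.97, 5.86 and 10.6 FPKM in Ctrl mice to 0.734, 0.996 and 2.09 FPKM in OEx mice. Htra1, a secreted serine protease with its own Kazal-like domain, fell by 1.45 (SE 0.25, limma FDR 0.00233), and Smoc1, a matricellular protein, fell by 1.07 (SE 0.32, limma FDR 0.0217). The call of Htra1 was lost with equal FPKM sums. That of Smoc1 was lost there too, with upper-quartile scaling, with the replicate number as a block, and without OEx replicate 3 or Ctrl replicate 3. Without OEx replicate 3, 2 genes of this list were called higher.

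Most serine protease genes of the kinds that such inhibitors act on were low in AP. Of 60 kallikreins, trypsin-like and membrane-anchored proteases, 13 passed the filter, 10 averaged from 0.1 to under 1 FPKM, 17 were lower but above 0 in some mouse and 20 were at 0 in all mice. Of the 13, 3 were called higher and 3 lower, or 23.1% each way beside 12.9% and 15.7% of all genes. Their median log2 fold change was -0.29. Only 3 of the 26 kallikreins passed. Klk1b24 had 0, 0.264 and 0.974 FPKM in Ctrl mice and 15.9, 13.2 and 26.8 FPKM in OEx mice. Klk1b21 was at 0 in all Ctrl mice and at 2.24, 2.46 and 2.23 FPKM in OEx mice. Both passed the filter only through the OEx mice and so had to differ, and no test is given for them. Klk1b22, which was not called, had 57.9, 57.2 and 0.0648 FPKM in OEx mice and 14.5, 13.4 and 29.2 FPKM in Ctrl mice. Without OEx replicate 3 it was called higher. These Klk1b genes are near-identical copies, and reads may be split between them.

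Among the 16 trypsin, acrosin and plasminogen activator genes, 5 passed and 1 was called lower, 20.0% beside 15.7% of all genes. This was Prss28, a tryptase-like protease, which had 3.29, 2.99 and 2.32 FPKM in Ctrl mice and 0, 0 and 0.0466 FPKM in OEx mice. It passed the filter only through the Ctrl mice, so its call is no finding. None was called higher by limma or limma-voom, and 1 was higher at an unadjusted p under 0.05. With equal FPKM sums, or without OEx replicate 3, 1 was called higher. Of 18 membrane-anchored proteases 5 passed, with 1 called higher and 2 lower. That is 20% and 40% of only 5 genes, beside 12.9% and 15.7% of all genes. Tmprss2, an androgen-responsive protease of luminal cells, fell by 1.91 (SE 0.19, limma FDR 2.04e-04), from 119, 121 and 92.1 FPKM in Ctrl mice to 24.7, 25.2 and 37.3 FPKM in OEx mice. Prss8, or prostasin, fell by 1.10 (SE 0.11, limma FDR 1.85e-04), a call lost with equal FPKM sums and with upper-quartile scaling. Hpn, or hepsin, rose by 1.54 (SE 0.19, limma FDR 4.40e-04), from 4.13, 3.48 and 6.27 FPKM to 13.8, 16.4 and 15.1 FPKM.

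Protease-activated receptors sense serine proteases at the cell surface. Of the 4 genes, F2r and F2rl1 passed the filter and neither was called by limma. F2rl1, which encodes the trypsin-sensing receptor, had a log2 fold change of 0.87 (SE 0.15, limma FDR 0.00195), below the required fold of 2, and F2r one of 0.64 (SE 0.34, limma FDR 0.143). At an unadjusted p under 0.05, 1 of them was higher, and 1 was called higher by limma-voom and with upper-quartile scaling and 2 with equal FPKM sums. With equal FPKM sums 4713 of all 13117 genes were called higher.

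**Figure D4:**
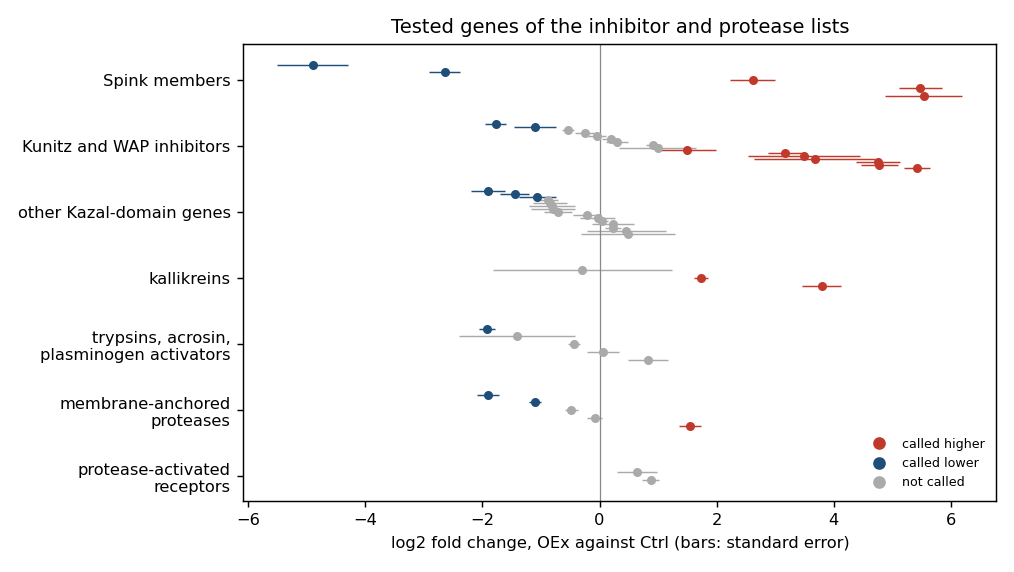
The log2 fold change of OEx against Ctrl (horizontal axis, bars: standard error) for each tested gene of the inhibitor, protease and receptor lists, 1 point per gene, in red where called higher, blue where called lower and grey where not called. Spink members and Kunitz and WAP inhibitors spread to both sides, reaching 5.54 for Spink11 (a value set by the added 1 FPKM) and -4.89 for Spink1. Of the Kazal-domain genes outside the Spink family, 5 lie above 0 and 10 below, and the 3 called ones lie below 0.

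The genes whose levels ran most like each member over the 6 mice were found by Pearson r of log2(FPKM + 1) among 4536 genes that averaged 10 FPKM or more. The 6 points fall into the 2 groups and share their libraries, so these r values are a description only. Spink1 ran most like Bex3, Htatip2 and Tgm4, with r from 0.9993 to 0.9999. Tgm4, the AP transglutaminase that forms the copulatory plug, had 8207, 8280 and 4610 FPKM in Ctrl mice and 90.7, 92.3 and 445 FPKM in OEx mice, with the same order of mice within OEx as Spink1. Spink8 ran most like Pla2g12a, Sbp and Rcn1. Sbp, a spermine-binding protein of prostatic fluid, had 1057, 1077 and 751 FPKM in Ctrl mice and 13.6, 12.4 and 58.3 FPKM in OEx mice.

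Spink5 ran most like Prps2, Gng12 and Anxa3. Anxa3, an annexin, had 57.0, 55.5 and 63.1 FPKM in OEx mice and 7.75, 8.14 and 12.7 FPKM in Ctrl mice, highest in replicate 3 of each group as Spink5 was. Spink11 ran most like Krt4, Rnf115 and Wdr13, with r from 0.9984 to 0.9998. Krt4, a keratin of stratified and proximal epithelium, had 48.1, 47.3 and 70.2 FPKM in OEx mice and 22.6, 22.0 and 22.7 FPKM in Ctrl mice. Its highest value was in OEx replicate 3, as for Spink11, but its range was far narrower.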

How the data were processed

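Whole AP of 3 OEx and 3 Ctrl mice was profiled by RNA-seq. The authors deposited FPKM values per gene symbol, 1 table per mouse. Per the labels, the submitters' processing notes name CASAVA, HISAT2 2.0.5, featureCounts 1.5.0-p3 and StringTie 1.3.3b. The genome build is not given in the sources used here. The members and lists were chosen with earlier results of these data known.

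Rows were matched by symbol to GENCODE vM21 (GRCm38), which placed 53710 rows. Reads were recovered from exon lengths and the steps between low FPKM values of a mouse. Under 1000 reads, 96.9% to 97.5% of values were whole within 0.05 reads. Recovered depth was 14772004 to 18655454 reads per mouse, so 3 reads correspond to 0.161 to 0.203 CPM, and this limit takes in counting error alone. The library sizes implied by the FPKM exceeded the recovered reads by a factor of 1.22 to 1.34 in OEx mice and stood at 0.726 to 0.815 of them in Ctrl mice, so the deposited values carry a scaling between mice.

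For the comparison of groups, limma 3.58.1 (R 4.3.3) was fitted to log2(FPKM + 1) with an intensity trend and the group as its single term. The fit took the 12833 rows averaging 1 FPKM or more. This understates the fold change of low genes. Genes with an FDR under 0.05 and a fold change over 2 were called, the study's criteria. FDR values were adjusted over all tested rows. Alternatives changed the pseudocount, the filter, the scaling, the call rule, the model (limma-voom on recovered reads), the replicate block and the mice used. The steps were tested on simulated data. Tables were made with Python 3.11.15, numpy 2.4.6 and pandas 2.3.3, and plots with matplotlib 3.10.9.

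Genes named are all Spink genes, Notch1, up to 4 called genes in each direction per list by size of change, and the 3 genes most like each member with a mean of at least 10 FPKM. Klk1b22, Gm10267, the protease-activated receptors, genes named for a turned direction and single marker genes were named after their values were seen. The p-values measure the spread between these mice, which may in part be technical. The remaining experiments of the study were not used here.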

Additional observations from a re-analysis of the deposited data

How the results depend on the processing

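Of 75 calls of the 5 Spink members under 15 alternatives, 75 were kept in direction, and no log2 fold change of a member turned. The members were chosen on this contrast, and Spink11 and Spinkl passed the filter only through the OEx mice, so this tally is no support. Changing the filter or adding the replicate block left each member's log2 fold change as it was. With the replicate block the members comprised 3 higher and 2 lower and all genes 1611 higher and 1986 lower, while the Kunitz and WAP inhibitors had 1 lower and 6 higher. Deviations from the group mean had a mean r of -0.230 between same-numbered mice and 0.0951 between others. With replicate 3 apart from the others in each group, these r values cannot tell whether the mice were paired. The labels name no pairing, so none was taken in the main fit. Leaving out 1 mouse gave log2 fold changes of -5.64 to -4.51 for Spink1, 4.70 to 6.0 for Spink11, 5.23 to 5.90 for Spink5, -2.95 to -2.46 for Spink8 and 2.17 to 2.97 for Spinkl. It gave 3 to 3 members higher and 2 to 2 lower, 1614 to 1726 genes higher and 1987 to 2043 lower, 5 to 8 inhibitors higher and 1 to 2 lower (1 without OEx replicate 2, OEx replicate 3 or Ctrl replicate 3), and 3 to 5 proteases higher (5 without OEx replicate 3) and 3 to 3 lower. Without replicate 3 of both groups, an alternative chosen after seeing the data, 1 inhibitor was lower and 5 proteases higher. With equal FPKM sums the median over all genes moved (log2) from -0.08 to 0.69. That scaling gave 4713 genes higher and 479 lower, against 1653 and 2021 as deposited. It also gave 12 inhibitors higher and 1 lower, and 5 proteases higher. The members then stood at -4.01 for Spink1, -1.76 for Spink8, 6.23 for Spink5, 6.01 for Spink11 and 2.99 for Spinkl. Upper-quartile scaling moved that median to 0.17, with 2380 genes higher and 1312 lower and 1 inhibitor lower. Limma-voom gave 2526 genes higher, 1 inhibitor lower, Spink5 at 6.12, Spink11 at 9.92 and Spinkl at 6.40, and a pseudocount of 0.1 gave Spink11 at 8.28 and Spinkl at 5.67. Without a filter 1 inhibitor was lower, and by FDR alone 3941 genes were higher and 4680 lower, with 5 proteases lower. Depth limits Spink2, Spink10 and Spink12, which had too few reads for a comparison.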
